A study of Mus musculus with 4 samples.

Results

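The insulin-like growth factor (IGF) system was examined in mouse embryonic fibroblasts (MEFs) through 10 genes, namely the ligands Igf1 and Igf2, the non-coding RNA gene H19, the receptor Igf1r and the binding proteins Igfbp2, Igfbp3, Igfbp4, Igfbp5, Igfbp6 and Igfbp7. Probes were taken by the gene name in the array files, which gave 22 of 41174 probes that are not controls, for 10 of 27827 gene names. Transcripts were measured in 4 MEF lines on 1 single-colour Agilent whole-genome array each. The 2 Ip6k1+/+ lines carry intact inositol hexakisphosphate kinase 1, and the 2 Ip6k1-/- lines lack it. All 4 lines came from littermate embryos at E14 from heterozygous parents, and each line descends from 1 embryo. Every line, controls included, was immortalised with SV40 large T antigen, and RNA was taken from untreated, exponentially growing cells after thawing and passaging. The labels number the lines of each genotype as replicates 1 and 2. A difference between genotypes therefore rests on 2 embryos against 2, and p-values measure the spread between these lines.

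IGF-I and IGF-II are secreted peptides that act through the receptor tyrosine kinase encoded by Igf1r, which mouse fibroblasts are known to need for transformation by SV40 large T antigen. The binding proteins hold the ligands in the medium and the extracellular matrix, prolong their life and limit their access to the receptor, until proteases such as pappalysin release them. Igf2 and H19 are neighbouring imprinted genes, expressed from the paternal and the maternal chromosome, respectively, and they share enhancers and a methylated control region.

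The probes that carry the H19, Igfbp2 and Igfbp4 results are given because each of these RNAs is read through these bases alone or with 1 further probe. Positions are those of the array files on mm9. Both H19 probes lie on the minus strand of chromosome 7, at chr7:149761769-149761828 and chr7:149762018-149762165. The Igfbp2 probe lies on the plus strand at chr1:72898677-72898736, and the Igfbp4 probe on the plus strand at chr11:98909591-98909650.
H19 A_51_P142196: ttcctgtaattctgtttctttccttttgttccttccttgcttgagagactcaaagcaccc
H19 A_52_P571350: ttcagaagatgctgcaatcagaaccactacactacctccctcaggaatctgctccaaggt
Igfbp2 A_51_P423308: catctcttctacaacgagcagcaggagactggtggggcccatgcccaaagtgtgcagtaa
Igfbp4 A_51_P398971: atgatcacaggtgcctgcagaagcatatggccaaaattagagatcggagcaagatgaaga

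The nearest H19 and Igf2 probes are 74507 bases apart on chromosome 7, and the nearest probes of Igfbp2 and Igfbp5 are 6092 bases apart on chromosome 1. The sequences before the start sites of Igfbp2, Igfbp3, Igfbp4 and Igfbp5 are shown because these binding proteins differed most between lines. RefSeq promoters (GRCm38.p6) were found for 9 of the 10 genes, in 13 windows, of which the 250 bases before the start were searched on both strands for the TATA box (TATAAA), the GC box (GGGCGG) and the AP-1 site (TGANTCA). The Igfbp2 window is that of the upstream start, at chr1:72824230-72824479 on the plus strand. The Igfbp3 window is at chr11:7213924-7214173 on the minus strand, the Igfbp4 window at chr11:99040994-99041243 on the plus strand and the Igfbp5 window at chr1:72874866-72875115 on the minus strand. Capitals mark matches to any of these motifs.
Igfbp2: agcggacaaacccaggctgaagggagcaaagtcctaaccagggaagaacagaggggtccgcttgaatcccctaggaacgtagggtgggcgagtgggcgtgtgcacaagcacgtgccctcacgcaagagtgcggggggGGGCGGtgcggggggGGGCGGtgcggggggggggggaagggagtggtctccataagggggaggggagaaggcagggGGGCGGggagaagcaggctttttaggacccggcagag
Igfbp3: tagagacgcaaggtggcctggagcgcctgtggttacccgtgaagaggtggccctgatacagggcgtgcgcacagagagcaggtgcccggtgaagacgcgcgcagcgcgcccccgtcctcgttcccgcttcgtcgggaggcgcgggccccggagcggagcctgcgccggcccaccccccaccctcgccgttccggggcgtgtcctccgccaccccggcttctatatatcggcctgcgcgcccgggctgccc
Igfbp4: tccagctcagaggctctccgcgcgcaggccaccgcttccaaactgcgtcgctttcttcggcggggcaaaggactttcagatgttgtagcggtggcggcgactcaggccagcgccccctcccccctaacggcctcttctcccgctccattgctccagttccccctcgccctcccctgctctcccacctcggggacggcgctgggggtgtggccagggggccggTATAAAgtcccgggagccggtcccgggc
Igfbp5: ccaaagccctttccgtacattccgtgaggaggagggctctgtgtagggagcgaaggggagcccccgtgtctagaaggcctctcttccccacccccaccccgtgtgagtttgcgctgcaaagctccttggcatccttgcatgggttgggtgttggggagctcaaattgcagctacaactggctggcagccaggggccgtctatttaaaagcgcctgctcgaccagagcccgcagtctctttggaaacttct

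The Igfbp2 window held 3 GC boxes, the Igfbp4 window held 1 TATA box that begins 28 bases before the start, and no match to these letters lay in the Igfbp3 and Igfbp5 windows. Over the members, GC boxes were present in 5 of 13 windows (Igf1r, Igf2, Igfbp2 and Igfbp7) against 32.7% of all 32851 promoter windows of this length. The TATA box was present in 2 of 13 (Igfbp4 and Igfbp6) against 12.4%, and the AP-1 site in 2 of 13 (Igf1 and the downstream start of Igfbp2) against 6.75%.

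Signals are given as log2 values relative to the 75th percentile of each array, so that 0 marks this percentile and a step of 1 is a doubling. On each array 52.0% to 55.5% of probes rose well above background, and the lowest such signal lay between -5.20 and -4.68. The targeted gene was low in both lines labelled Ip6k1-/-. Ip6k1 probes A_51_P213766 and A_52_P413035, which overlap, fell below detection (not well above background) in both Ip6k1-/- lines, and their signal was at least 34.0-fold and 32.7-fold higher in Ip6k1+/+ MEFs (limma adjusted p = 0.0355 for both). The third probe, A_51_P103718, remained measurable and went from 2.53 ± 0.11 to -1.60 ± 0.53 (SD, n = 2 lines each). Here the mean of the measured genotype was divided by the faintest signal still well above background on each dim array, or by the probe's own signal if that was brighter. All 7 fibroblast markers on the array (Col1a1, Col1a2, Col3a1, Thy1, Pdgfra, Pdgfrb and Vim) were well above background in every line, with a summed linear signal between 366 and 427 times the 75th percentile, although 3 of them were saturated on at least 1 array. None of 5 skeletal muscle markers was detected in any line. Of the defining markers of other cells, Pecam1, Cdh5 and Tek (endothelial), Ptprc and Emr1 (leukocyte) and Cdh1 and Krt14 (epithelial) showed no signal well above background. Krt18 (epithelial), Cd68 and Cd14 (leukocyte) and Kdr (endothelial) were detected in every line, and Krt8, Krt5, Epcam and Csf1r in some. Kdr was -3.66 and -3.99 in Ip6k1+/+ MEFs and -2.94 and -1.59 in Ip6k1-/- MEFs, a 2.95-fold higher mean (limma adjusted p = 0.993) with no overlap. The part of these cells in the IGF results was not tested.

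Of the 22 member probes, 18 were tested, as each was well above background in both lines of a genotype, and these covered all 10 genes. Of the tested probes, 15 were well above background on all 4 arrays. The others, 1 of Igfbp3 and both of Igfbp4, passed through the Ip6k1+/+ lines alone. A further 2 probes (Igfbp3 A_51_P228472 and A_52_P851352) stayed at background throughout. The remaining 2 were well above background on some arrays without covering a genotype (Igf1 A_52_P306327 and Igfbp5 A_51_P204153). No member probe was saturated. The signal of each probe in each line is plotted for all 22.

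**Figure D1:**
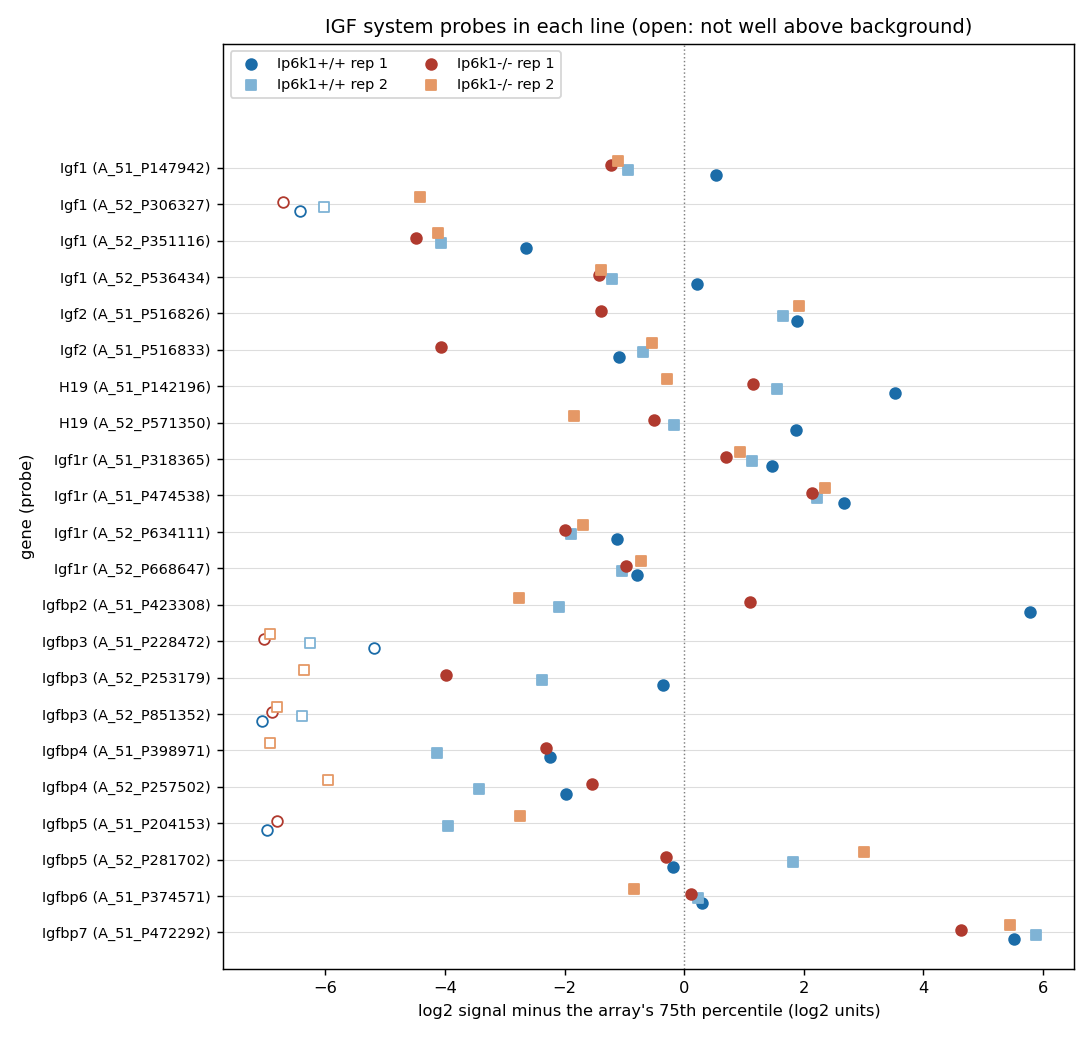
Log2 signal minus the array's 75th percentile (x axis, log2 units) of each member probe (y axis) in Ip6k1+/+ replicates 1 and 2 (blue circles and squares) and Ip6k1-/- replicates 1 and 2 (red circles and orange squares), with open symbols where a probe was not well above background. Igfbp2 runs from 5.78 in Ip6k1+/+ replicate 1 to -2.77 in Ip6k1-/- replicate 2, Igf2 is low only in Ip6k1-/- replicate 1, and the Igf1r lines lie close together.

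The members mostly had lower means in Ip6k1-/- MEFs. The mean was lower in Ip6k1-/- MEFs for 16 of 18 probes, where 43.5% of all 21572 probes tested had a lower mean. For 9 probes the higher Ip6k1-/- line was still below the lower Ip6k1+/+ line, in 6 genes (Igf1, H19, Igf1r, Igfbp3, Igfbp6 and Igfbp7), against 12.6% of all probes. For 0 member probes did both Ip6k1-/- lines lie above, against 18.8% of all. The median difference was -0.95 over the member probes and 0.05 over all probes tested. Probes of 1 gene share their RNA, so that these counts are not over independent measurements. For the Igfbp3 probe and both Igfbp4 probes, tested through the Ip6k1+/+ lines alone, the filter favours a lower mean in Ip6k1-/- MEFs. The members were also chosen with earlier results of these data known, so that their contrast with all probes is a description and no test.

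The fold rule called a gene where the mean difference was at least 2-fold, which is 1 on the log2 scale, and each Ip6k1-/- line lay at least 0.9 from the Ip6k1+/+ mean in the same direction. H19 and Igfbp3 were past it, both lower, on 3 probes. The Igfbp3 probe was tested through the Ip6k1+/+ lines alone, where it was higher, so that the filter favoured a lower call. Among probes well above background on all 4 arrays, only H19 was past the rule. The background was 2.44% of 14334 gene names lower, and 1.87% of probes. By the mean difference alone 8 member probes of 5 genes were at least 2-fold lower, against 4.11% of all probes. With dim values raised to the faintest detected signal of their array, these were 6 probes of 4 genes, without Igfbp4, against 3.24%. No member was past it as higher, against 1.51% of gene names. With limma, 0 members had an adjusted p of at most 0.05 (background 0.0139% of probes, or 3), and the adjusted p was 0.993 for all 18 probes. At an unadjusted limma p below 0.05, 1 member probe was called (Igfbp3, with the same limit of the filter), against 3.34% of all probes. The methods' t-test called 0 members at the same unadjusted threshold, and its share over all probes is not given here.

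Spread within a genotype was wide for these genes. The Ip6k1+/+ lines differed by at least 2-fold on 10 of 18 member probes, against 13.7% of all probes, and the Ip6k1-/- lines on 9 of 18, against 11.2%. The median size of the difference between the Ip6k1+/+ lines was 1.42 for the members and 0.36 for all probes tested, and that between the Ip6k1-/- lines was 1.15 and 0.31. For 15 of 18 member probes the lines of a genotype differed by more than the genotypes did, a share near the 80.9% of all probes. The 3 exceptions were H19 A_51_P142196, Igf1r A_51_P318365 and Igfbp3 A_52_P253179. In the plot of differences, the standard errors of Igfbp2, Igfbp4, Igfbp5 and 3 of 4 Igf1r probes cross 0.

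**Figure D2:**
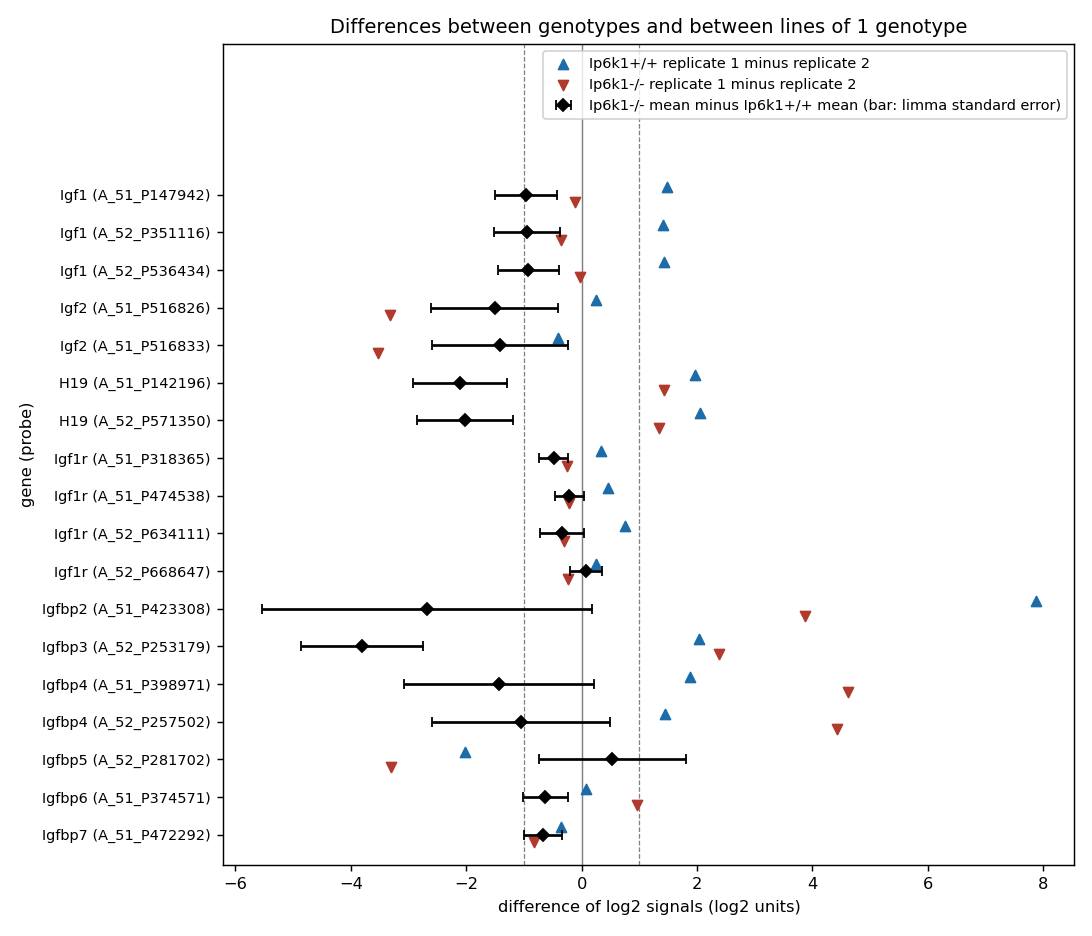
Difference of log2 signals (x axis, log2 units) for each tested member probe (y axis): the Ip6k1-/- mean minus the Ip6k1+/+ mean (black diamonds, bars for the limma standard error), replicate 1 minus replicate 2 of the Ip6k1+/+ lines (blue) and of the Ip6k1-/- lines (red), with dashed lines at a 2-fold difference. For 15 of 18 probes a coloured triangle lies farther from 0 than the diamond.

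H19 was lower in Ip6k1-/- MEFs on both of its probes, about 4-fold, and showed the same order of lines on both. H19 encodes a long non-coding RNA that is abundant in the embryo and restrains growth. On A_51_P142196 the log2 signal was 3.52 and 1.54 in Ip6k1+/+ replicates 1 and 2, and 1.14 and -0.28 in Ip6k1-/- replicates 1 and 2. The groups did not overlap, but Ip6k1-/- replicate 1 came close to Ip6k1+/+ replicate 2. The mean went from 2.53 ± 1.40 to 0.43 ± 1.01 (SD, n = 2 each), a difference of -2.10 or 4.29-fold (limma standard error 0.82, unadjusted p = 0.052, adjusted p = 0.993). On A_52_P571350 the log2 signal was 1.87 and -0.18 in the Ip6k1+/+ lines against -0.51 and -1.85 in the Ip6k1-/- lines. This is a difference of -2.03 or 4.07-fold (limma standard error 0.83, unadjusted p = 0.061, adjusted p = 0.993).

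The difference in H19 between lines of 1 genotype was of similar size. Replicate 1 exceeded replicate 2 by 3.93-fold in Ip6k1+/+ and by 2.69-fold in Ip6k1-/- MEFs on A_51_P142196. On A_52_P571350 these were 4.14-fold and 2.52-fold. Without Ip6k1+/+ replicate 1 the genotype difference came to -1.11 and -1.0 on the probes in this order, and H19 was no longer past the fold rule.

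Igf2, the fetal growth factor encoded next to H19, was low in a single Ip6k1-/- line and did not differ in the same way in the other. Its probe A_51_P516826, on the minus strand at chr7:149836673-149836709, is spotted 10 times on each array, and the spots of 1 array varied by an SD of at most 0.036. The log2 signal was 1.89 and 1.64 in the Ip6k1+/+ lines, -1.40 in Ip6k1-/- replicate 1 and 1.92 in Ip6k1-/- replicate 2. The groups overlap, since Ip6k1-/- replicate 2 was the highest of the 4 lines and replicate 1 was 9.99-fold lower than it. Probe A_51_P516833, at chr7:149837115-149837174, gave -1.09 and -0.69 in the Ip6k1+/+ lines against -4.07 and -0.55 in the Ip6k1-/- lines. The Ip6k1-/- lines differed by 11.5-fold on this probe, with the same line low.

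The genotype means of Igf2 differed by -1.51 (limma standard error 1.1, adjusted p = 0.993) and -1.42 (limma standard error 1.18, adjusted p = 0.993), and neither probe was past the fold rule. Without Ip6k1-/- replicate 1 the difference turned to 0.15 and 0.34. Igf2 and H19 therefore had different lines at their lowest, replicate 1 of Ip6k1-/- for Igf2 and replicate 2 for H19.

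Igf1, the ligand that mediates much of the growth response to growth hormone, was higher in Ip6k1+/+ replicate 1 than in the other 3 lines. Probe A_51_P147942, at chr10:87393516-87393575 on the plus strand, is also spotted 10 times, with an SD within an array between 0.023 and 0.037. Its log2 signal was 0.54 and -0.94 in the Ip6k1+/+ lines against -1.22 and -1.11 in the Ip6k1-/- lines. The Ip6k1-/- lines lay below both Ip6k1+/+ lines and within 1.08-fold of each other, while the Ip6k1+/+ lines were 2.78-fold apart. The difference was -0.97 (limma standard error 0.54, adjusted p = 0.993), and -0.23 without Ip6k1+/+ replicate 1.

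The other Igf1 probes had the same order of genotypes. A_52_P536434 gave 0.22 and -1.21 in the Ip6k1+/+ lines against -1.43 and -1.40 in the Ip6k1-/- lines, differing by -0.92. A_52_P351116 gave -2.65 and -4.06 against -4.48 and -4.12, a difference of -0.94. All 3 probes fell short of the 2-fold mean difference. The fourth, A_52_P306327, which the array files assign to another cDNA (AK050118), was well above background in Ip6k1-/- replicate 2 alone.

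Igf1r, the receptor for both ligands, was measured in every line on 4 probes and was the member with the smallest differences. On A_51_P318365 the log2 signal was 1.47 and 1.13 in Ip6k1+/+ MEFs and 0.69 and 0.94 in Ip6k1-/- MEFs, a difference of -0.49 or 1.40-fold (limma standard error 0.25, unadjusted p = 0.109, adjusted p = 0.993). The Ip6k1-/- lines lay below the Ip6k1+/+ lines on this probe. On the other 3 probes the lines overlapped, with differences of -0.21 (A_51_P474538), -0.34 (A_52_P634111) and 0.07 (A_52_P668647). No 2 lines of a genotype differed by over 1.69-fold on any Igf1r probe.

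Among the binding proteins, Igfbp2 had the widest range over the lines, and Igfbp3 was the only one past the fold rule. Igfbp2 encodes a binding protein abundant in the fetus that can also bind integrins. Its log2 signal was 5.78 in Ip6k1+/+ replicate 1, -2.09 in Ip6k1+/+ replicate 2, 1.1 in Ip6k1-/- replicate 1 and -2.77 in Ip6k1-/- replicate 2. Replicate 1 was high and replicate 2 low in both genotypes, by 235-fold in Ip6k1+/+ and 14.6-fold in Ip6k1-/- MEFs, so that the groups overlap. The mean difference of -2.68 (limma standard error 2.86, unadjusted p = 0.394, adjusted p = 0.993) turned to 1.26 without Ip6k1+/+ replicate 1.

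Igfbp3, the main carrier of IGFs in serum, was lower in both Ip6k1-/- lines. Probe A_52_P253179, at chr11:7106594-7106653 on the minus strand, gave -0.35 and -2.38 in the Ip6k1+/+ lines and -3.98 in Ip6k1-/- replicate 1. In Ip6k1-/- replicate 2 it was not well above background, with a value of -6.37, so that 1 of 2 Ip6k1-/- arrays measured it. Means of -1.36 ± 1.44 and -5.17 ± 1.69 (SD, n = 2 each) gave a difference of -3.81 (limma standard error 1.07, unadjusted p = 0.018, adjusted p = 0.993). With the dim value raised to the faintest detected signal of its array, the difference was -2.96. The Ip6k1-/- lines lay below both Ip6k1+/+ lines, which were themselves 4.10-fold apart. Without Ip6k1-/- replicate 2, which leaves detected values only, the difference was -2.61, and with normexp background correction it was -2.47. The other 2 Igfbp3 probes, which the array files assign to X81581 and AK045003, did not detect a transcript in any line.

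Igfbp4, which binds IGFs until pappalysin cleaves it, was high in replicate 1 of both genotypes. Probe A_51_P398971 gave -2.25 and -4.13 in the Ip6k1+/+ lines, -2.31 in Ip6k1-/- replicate 1 and -6.93 in Ip6k1-/- replicate 2, where it was not well above background. Probe A_52_P257502 gave -1.98 and -3.43 against -1.54 and -5.96, the last again not well above background. Between the Ip6k1-/- lines the signal was at least 5.15-fold and 8.79-fold higher in replicate 1. The groups overlap on both probes. The mean differences of -1.43 and -1.05 rest on these undetected values. They were -0.30 and -0.40 with dim values raised to the faintest detected signal, -0.54 and -0.34 with normexp background correction, and 0.88 and 1.16 without Ip6k1-/- replicate 2.

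Igfbp5, a binding protein that attaches to extracellular matrix, ran the opposite way and was high in replicate 2 of both genotypes. Probe A_52_P281702, at chr1:72904829-72904888 on the minus strand, gave -0.19 and 1.82 in the Ip6k1+/+ lines against -0.30 and 3.0 in the Ip6k1-/- lines. Replicate 2 exceeded replicate 1 by 4.05-fold in Ip6k1+/+ and by 9.90-fold in Ip6k1-/- MEFs. The groups overlap, and the mean difference was 0.54 (limma standard error 1.28, adjusted p = 0.993), the only tested binding protein probe with a higher mean in Ip6k1-/- MEFs. It turned to -0.47 without Ip6k1+/+ replicate 1 and to -1.12 without Ip6k1-/- replicate 2. Probe A_51_P204153 was well above background in Ip6k1+/+ replicate 2 and Ip6k1-/- replicate 2 and in neither replicate 1. Igfbp2 and Igfbp5, neighbours on chromosome 1, were thus high in different lines.

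Igfbp6 and Igfbp7 varied less. Igfbp6, which binds IGF-II in preference to IGF-I, gave 0.30 and 0.23 in the Ip6k1+/+ lines against 0.11 and -0.85 in the Ip6k1-/- lines. Its difference of -0.63 (limma standard error 0.39, adjusted p = 0.993) came to -0.15 without Ip6k1-/- replicate 2. Igfbp7, a matrix protein that binds IGFs weakly, gave 5.52 and 5.88 against 4.62 and 5.45, a difference of -0.67 (limma standard error 0.33, adjusted p = 0.993). For both genes the Ip6k1-/- lines lay below the Ip6k1+/+ lines, with the nearest lines of the genotypes close together.

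H19 and some of the binding proteins shared an order of lines. After the values were seen, probes were counted on which replicate 1 exceeded replicate 2 by at least 2-fold in both genotypes. This order was taken from the members' own values, so that their share is a description and no test. These were 6 of 18 member probes, for H19, Igfbp2, Igfbp3 and Igfbp4, against 3.03% of all probes tested. Igfbp3 and Igfbp4 were not well above background in Ip6k1-/- replicate 2. With dim values raised to the faintest detected signal, 5 probes remained (H19, Igfbp2 and Igfbp4, without Igfbp3), against 2.91% of all. The opposite order was found on 1 member probe, that of Igfbp5, against 1.9% of all. Replicate numbers are names within a genotype, and the labels tie no Ip6k1+/+ line to an Ip6k1-/- line.

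The summed signal of cartilage markers had the same order of lines within each genotype. All 4 cartilage markers on the array (Sox9, Col2a1, Acan and Comp) were well above background in every line. Their summed linear signal was 9.94 and 2.79 times the 75th percentile in Ip6k1+/+ replicates 1 and 2, and 5.14 and 0.423 in Ip6k1-/- replicates 1 and 2. This sum was thus high in replicate 1 and low in replicate 2 of both genotypes, as were Igfbp2 and Igfbp4. A linear sum weights the brightest genes most, so that its order of lines need not hold for each of the 4 genes. By genotype, 3 of the 4 genes had a lower mean in Ip6k1-/- MEFs, on the brightest probe of each, and the remaining gene did not. Values by line are given for Col2a1 alone, the only 1 of these genes past the fold rule. Col2a1, a cartilage collagen gene, was 2.15 and -1.10 in the Ip6k1+/+ lines against -1.07 and -3.18 in the Ip6k1-/- lines on A_51_P317141, and was past the fold rule as lower. Of the neural markers Sox2, Sox10, Tubb3 and Nes, 3 and 4 were well above background in the Ip6k1+/+ lines and 2 in each Ip6k1-/- line. Sox2, a stem cell transcription factor, was past the fold rule as lower and was well above background in the Ip6k1+/+ lines alone, at least 2.53-fold higher there. Tubb3 and Nes had differences of 0.17 and 0.04, and the summed neural signal was 7.24 and 10.3 times the 75th percentile in the Ip6k1+/+ lines against 6.50 and 12.1 in the Ip6k1-/- lines. The part of these cell types in the IGF results was not tested. In RNA from whole cultures, fewer cells of a type and less RNA per cell cannot be told apart. Pdgfrb, a fibroblast marker and growth factor receptor, was also past the fold rule, at 4.67 and 4.45 in Ip6k1+/+ and 3.34 and 3.39 in Ip6k1-/- MEFs.

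**Figure D3:**
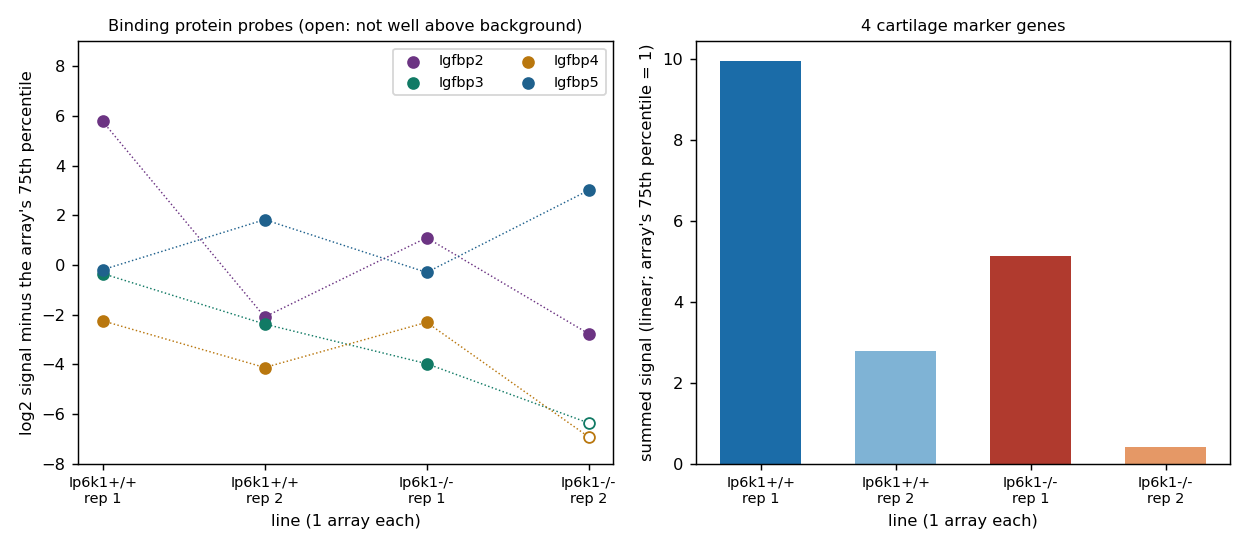
Left, log2 signal minus the array's 75th percentile (y axis) of a probe each of Igfbp2, Igfbp3, Igfbp4 (A_51_P398971) and Igfbp5 in the 4 lines (x axis, 1 array each, open symbols not well above background, dotted lines join the points of a probe). Right, summed linear signal of Sox9, Col2a1, Acan and Comp in the same lines, with the 75th percentile set to 1. Igfbp2 and the marker sum are both highest in Ip6k1+/+ replicate 1 (5.78 and 9.94) and lowest in Ip6k1-/- replicate 2 (-2.77 and 0.423).

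The wider IGF pathway had a median difference near 0. Of 32 further pathway genes on the array 24 were tested, and 0 were past the fold rule in either direction, against 1.51% of all gene names higher and 2.44% lower. Limma called 0 of them after adjustment. At an unadjusted limma p below 0.05 there was 1 (Stc1), where 632 of 14334 gene names had a probe with such a p. The median difference of the pathway genes, on the brightest probe of each, was -0.09, beside 0.04 over all gene names and -1.01 over the members. Igfals, Igfbp1, Igfbpl1, Ins1, Ins2, Insrr, Pappa2 and Foxo3 were on the array but had no probe that was tested, and Irs2 was not listed by that name.

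Igf2r, the receptor that clears IGF-II, gave 2.99 and 3.81 in the Ip6k1+/+ lines against 3.04 and 3.32 in the Ip6k1-/- lines, differing by -0.22 (limma standard error 0.33). Insr, the insulin receptor, differed by -0.20 (limma standard error 0.49). Irs1, an adaptor of both receptors, differed by -0.09 and -0.56 on the probes that were tested. Grb10, an imprinted adaptor that restrains the receptor, differed by -0.41, -0.33 and 0.14, each at most 1.33-fold. On the probes with -0.41 and -0.33 the Ip6k1-/- lines lay below the Ip6k1+/+ lines. Both differences exceeded in size those between lines of a genotype, which were 0.20 and -0.17 on the first probe and 0.075 and -0.26 on the second.

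Pappa and Stc1, which regulate the binding proteins, had lower means in Ip6k1-/- MEFs. Pappa, which encodes the protease that cleaves Igfbp4 and Igfbp5, gave 0.29 and 0.94 in the Ip6k1+/+ lines against 0.04 and -0.45 in the Ip6k1-/- lines on A_51_P340027. On this probe the Ip6k1-/- lines lay below both Ip6k1+/+ lines, at a difference of -0.83 or 1.77-fold (limma standard error 0.35, unadjusted p = 0.066, adjusted p = 0.993). On the dimmer Pappa probe A_52_P107406 the lines overlapped. It gave -4.28 and -3.04 against -3.99 and -4.69, the last not well above background. Stc1, an inhibitor of this protease, was well above background in the Ip6k1+/+ lines alone, at least 1.25-fold higher there, and was not past the fold rule.

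The pattern of Igf2, low in Ip6k1-/- replicate 1 alone, was also present in some other imprinted genes. After the values were seen, probes were counted on which this line lay at least 2-fold below each of the other 3. These were 384 of 21572 probes tested (1.78%), and 2 of 18 member probes, both of Igf2. Among 31 tested probes of imprinted genes other than Igf2 and H19 there were 7, for Dlk1, Meg3, Mest and Peg12, or 4 of 18 genes, beside 317 of 14334 gene names. With dim values raised to the faintest detected signal these were 5 probes of the same 4 genes, against 1.27% of all. Most of these probes are of Dlk1 and Meg3, which share 1 imprinted domain, so that the counts are not over independent measurements. Dlk1, a Notch ligand-like protein of fetal tissues, gave 2.84 and 2.37 in the Ip6k1+/+ lines against -2.68 and 3.34 in the Ip6k1-/- lines on A_51_P135618. Meg3, the non-coding RNA that shares the Dlk1 domain, gave 1.37 and 2.62 against -4.43 and 1.55 on A_52_P391505. In both genes Ip6k1-/- replicate 1 stood below the other 3 lines, as in Igf2, while H19 did not. The 3 probes of Igf2bp3, which encodes a protein that binds Igf2 RNA, had the same line lowest, with -2.39, -3.89 and -1.99 there.

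Other imprinted genes had various patterns over the lines. Beside Igf2 and H19, 18 imprinted genes were tested, with a median difference of -0.18. Of these, 0 were past the fold rule and 0 were called by limma. There were also 0 at an unadjusted limma p below 0.05, where 632 of 14334 gene names had a probe with such a p. Cdkn1c, an inhibitor of the cell cycle, gave -0.27 and 3.09 in the Ip6k1+/+ lines against -1.21 and 4.10 in the Ip6k1-/- lines, with replicate 2 high in both. Replicate 1 lay at least 2-fold below replicate 2 in both genotypes on 9 of 31 probes of 6 genes, Meg3 and Peg12 among them, against 1.9% of all probes. Peg3 A_51_P206037 was well above background in replicate 2 of both genotypes and in neither replicate 1, which kept it from being tested.

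**Figure D4:**
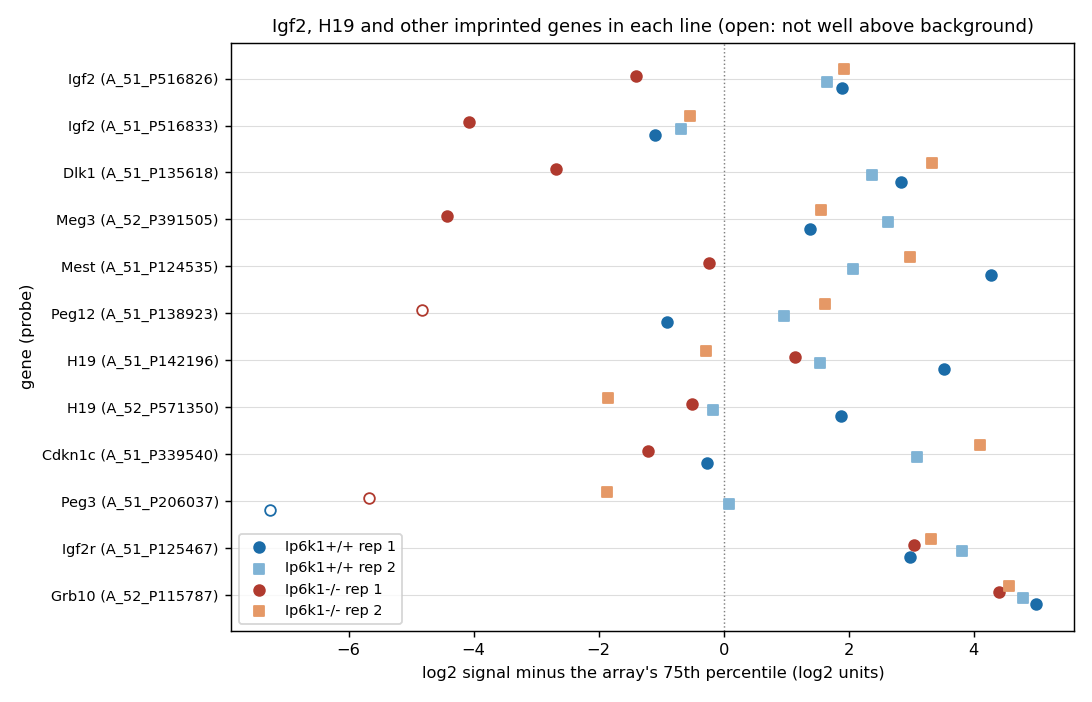
Log2 signal minus the array's 75th percentile (x axis, log2 units) of probes of Igf2, H19 and other imprinted genes (y axis) in the 4 lines (symbols by line, open where a probe was not well above background). Ip6k1-/- replicate 1 is the lowest line for Igf2, Dlk1 (-2.68), Meg3 (-4.43), Mest and Peg12, whereas Ip6k1-/- replicate 2 is the lowest for H19.

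The genes most like Igf2, H19 and Igfbp2, the last being the binding protein with the widest spread among probes detected in every line, were found by the root mean square distance between 4 values centred on their mean, over 19700 probes well above background and not saturated in all 4 lines. Such a distance is a description over 4 libraries. For Igf2 (A_51_P516833) these were Tnfrsf11a (distance 0.11), Cdh11 (0.22) and Igf2bp3 (0.26). Tnfrsf11a encodes the receptor RANK and Cdh11 a cadherin of mesenchymal cells. For H19 (A_51_P142196) these were Lims2 (0.17), Htra3 (0.17) and Cd248 (0.18), of which Cd248 encodes endosialin, a surface protein of stromal cells. For Igfbp2 the nearest were farther away, namely Sfrp2 (0.73), Sned1 (0.91) and Gpc3 (0.98). Sfrp2 binds Wnt proteins and Gpc3 is a cell surface proteoglycan. In Sfrp2 the log2 signal was 4.00 and -2.04 in the Ip6k1+/+ lines against 0.16 and -2.92 in the Ip6k1-/- lines.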

How the data were processed

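RNA of 2 Ip6k1+/+ and 2 Ip6k1-/- MEF lines was hybridised to 1 Agilent array each, all 4 on 1 slide, so that slide and scan were no block. The authors deposited the spot intensity of Feature Extraction 10.5.1.1, corrected for background on a linear scale, with flags for background, saturation and outlier spots. They also deposited log2 values of all probes, shifted to each 75th percentile in GeneSpring GX. Probe positions are on mm9, per the file headers.

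The deposited processed intensity was put on the log2 scale, each array's 75th percentile over 43379 spots was subtracted, outlier spots were left out (96 to 133 per array) and spots of a probe were averaged. The 75th percentile of the signal was 610 to 747. The 21572 probes (14334 gene names) that both arrays of a genotype had well above background were fitted with limma 3.58.1 (lmFit, eBayes with trend, R 4.3.3), and p-values were adjusted over all of them by Benjamini-Hochberg. The script was tested on simulated data. The number of arrays limits the precision. A gene counted as past the fold rule if any probe was.

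The members, the lists and the tests were chosen with earlier results of these data known. All members are named, with list genes past the fold rule and Igf2r, Insr, Irs1, Irs2, Pappa, Grb10, Cdkn1c, Dlk1, Meg3 and Peg3 whatever their value. Stc1, Mest, Peg12, Igf2bp3 and Foxo1, the marker genes given as detected, and those relatives of the binding proteins that are not past the rule, were chosen once their values had been seen. Alternatives were normexp background correction (offset 16, leaving out 5 spots below their local background), quantile and median scaling, other filters on dim probes, outlier spots kept, the deposited log2 values, a replicate block, limma without trend, the methods' t-test, other fold rules and leaving out each array. A floor on dim values was added after seeing the data.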

Additional observations from a re-analysis of the deposited data

How the results depend on the processing

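Across the alternatives run, 256 of 267 differences of the member probes kept their direction and their side of the threshold. Many of these could not have reversed. Other filters, a replicate block, limma without trend and the methods' t-test leave the difference itself unchanged. The floor changes only probes with a dim value. With all 4 lines kept, limma called 0 members under each alternative (adjusted p between 0.195 and 0.998). The 11 other differences reversed when 1 line was left out, where the lone line of a genotype is assumed to vary like the rest. Leaving out each line in turn gave -3.17 to 0.15 and -3.18 to 0.34 for Igf2, -0.44 to 0.015 (A_51_P474538), -0.72 to 0.044 (A_52_P634111) and -0.054 to 0.19 (A_52_P668647) for Igf1r, -6.62 to 1.26 for Igfbp2, -3.73 to 0.88 and -3.26 to 1.16 for Igfbp4, and -1.12 to 2.19 for Igfbp5. Members past the fold rule as lower numbered 1 (H19) with probes well above background on all 4 arrays, 5 by the mean difference alone, and 1 (Igfbp3, without Ip6k1+/+ replicate 1) to 6 with a line left out, and those higher 0 to 1. Pathway genes past it, 0 in the report, numbered 2 without a filter, 1 with the deposited log2 values, 2 by the mean alone and 1 to 3 with a line left out. Imprinted genes past it, also 0, numbered 6 by the mean alone and 1 to 8 with a line left out. The cause of these changes was not tested. With a line left out, the fold rule rests on fewer lines for every gene on the array. The share of all gene names past the rule under each of these settings is not given here. The counts of members, pathway genes and imprinted genes under them therefore cannot be set against the shares given for the main processing. With the replicate number as a block, the lowest adjusted p of a member was 0.195 (H19 A_51_P142196 and Igfbp3), and no call changed. The numbers do not establish pairs: the deviations of same-numbered lines correlated at 0.48 across probes, but there are only 2 pairs. Precision is limited by 2 lines per genotype. Igfbp3 and Igfbp4 were near background in Ip6k1-/- replicate 2, so that the size of their differences depends on how dim values are treated.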

Other observations

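Proteins that share the cysteine-rich domain of the IGF binding proteins were compared in the same way, on a list chosen with earlier results of these data known. Of 11 such genes on the array 9 were tested, and 3 (Htra3, Kazald1 and Nov) were past the fold rule as lower in Ip6k1-/- MEFs and 0 as higher (2.44% and 1.51% of all gene names), with a median difference of -0.28 on the brightest probe of each gene. Limma called 0 after adjustment and 1 at an unadjusted p below 0.05 (Htra3), where 632 of 14334 gene names had a probe with such a p. Htra3, a secreted serine protease, gave -0.49 and -2.03 in the Ip6k1+/+ lines against -2.71 and -3.93 in the Ip6k1-/- lines on A_51_P106538, a difference of -2.06 (limma standard error 0.70, adjusted p = 0.993). Its other tested probe, A_52_P217437, gave a difference of 0.13, so that the probes of this gene disagree. Nov, a matricellular protein of the CCN family, gave 0.26 and -2.57 against -2.31 and -4.65, the groups overlapping. The last of these values was not well above background. Kazald1 gave 2.43 and -1.63 against -1.56 and -2.29, with Ip6k1+/+ replicate 1 above the other 3 lines. The groups overlapped here too, and the Ip6k1+/+ lines were 16.7-fold apart.

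Other CCN family genes varied in different ways. Wisp2 gave 3.99 and 0.52 in the Ip6k1+/+ lines against 3.34 and -3.72 in the Ip6k1-/- lines, replicate 1 exceeding replicate 2 by 11.1-fold and 134-fold. Wisp1 had the opposite order, with 4.17 and 5.38 against 4.46 and 5.48. Ctgf and Cyr61, early targets of growth factor and mechanical signals, differed by 0.33 (limma standard error 0.46) and -0.14 (limma standard error 0.25) between genotypes. The transcription factor gene Foxo1, which insulin and IGF signals hold in check at the protein level, gave 2.32 and 0.58 in the Ip6k1+/+ lines against 3.89 and 0.65 in the Ip6k1-/- lines on A_51_P138044, with replicate 1 high in both genotypes.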
